A study of Homo sapiens with 6 samples.

Results

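Glycolysis turns glucose into pyruvate in the cytosol. Lactate dehydrogenase then interconverts pyruvate and lactate, and the mitochondrial pyruvate carrier and the pyruvate dehydrogenase complex take pyruvate towards the citric acid cycle. The genes described here are the 33 that cover this route: glucose transporters (SLC2A1, SLC2A3), hexokinases (HK1, HK2), the enzymes from GPI to PKM with the makers and breakers of fructose 2,6-bisphosphate (PFKFB2, PFKFB3, PFKFB4), lactate dehydrogenases (LDHA, LDHB), lactate transporters (SLC16A1, SLC16A3), the mitochondrial pyruvate carrier (MPC1, MPC2), pyruvate dehydrogenase subunits (PDHA1, PDHB, DLAT) and the kinases that switch that complex off (PDK1 to PDK4). They were chosen by name, and all 33 were found among the 62700 genes of the table. Many tumour cells are known for making lactate even in the presence of oxygen, and several of the steps have paired isozymes whose balance differs between tissues.

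Polyadenylated RNA was measured in TCam-2, an established cell line from a human testicular seminoma, grown in RPMI 1640 medium with fetal bovine serum in every group. The groups, with 2 libraries each, were non-transduced cells (WT), cells carrying FLAG-tagged GFP (GFP) and cells carrying FLAG-tagged RBMXL3 (RBMXL3), an RNA-binding protein of the RBMX family; WT and GFP were the negative controls for differential expression and splicing. The labels used here give neither the promoter of the constructs nor whether the transduced cells were clones or pools, and nothing in them says that the 2 libraries of a group came from separate cultures, so p-values measure the spread between these libraries only. Preparation batches are not labelled and cannot be told apart from the groups. In bulk RNA, fewer cells of a type and less RNA per cell cannot be told apart either.

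The libraries held 17685680 to 29318007 counted reads, with both RBMXL3 libraries the shallowest. RBMXL3 itself had 84 and 68 reads in the RBMXL3 libraries and 0 in each of the 4 controls. The 10 markers of seminoma and pluripotency summed to a normalised read count of 117781 to 135222 per library. In RBMXL3, NANOS3 was called higher and KIT and LIN28A lower against both controls, beside 6.88% and 6.86% of all genes. In summed TPM NANOS3 was highest in both RBMXL3 libraries. KIT (3.13 and 2.44 in RBMXL3, lowest control 3.03) and LIN28A (209 and 221, lowest control 208) overlapped with the controls there. SOX2, which seminoma lacks, had 11.7 to 34.2. The 4 embryonal carcinoma markers, SOX2 among them, summed to 3138.5 to 4307, with TDGF1 at 2121 to 2880 and DNMT3L at 765 to 1444. Of these 4, DNMT3L and GDF3 were called higher in RBMXL3 than in WT. Against GFP, SOX2 was called higher and DNMT3L lower, so none was called the same way against both. Blood markers summed to 0 to 6.42 and skeletal muscle markers to 7.55 to 17.8. The 5 fibroblast markers summed to 8495 and 9700 for WT, 13432 and 11969 for GFP and 12660 and 13486 for RBMXL3, with DCN at 0 to 1.69. Most of this sum was 1 gene, COL1A2, at 8093 and 9275 for WT, 12709 and 11241 for GFP and 11331 and 12167 for RBMXL3. Of the 4 fibroblast markers that could be tested, 4 were called higher in GFP than in WT, beside 1.76% of all genes. In RBMXL3, 4 were called higher than in WT, beside 14.6%. Between RBMXL3 and GFP 2 were called higher, LUM and COL3A1, beside 10.5%, and COL1A2 was not called (log2 -0.026). The part of these markers in the results below was not tested. GFP replicate 1 stood apart: it had the highest value of the 6 libraries for 16 of the 33 genes, against 19.4% of all 14292 genes tested (12 of 33 and 13.5% in summed TPM), and the lowest share of mitochondrial reads (1.31%, against 2.02% to 3.02% in the others).

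Levels can be compared between genes only per length, here as TPM, the length-corrected share of all transcripts, summed over the transcripts of a gene. The mRNAs of the 33 genes made up 1.70% to 2.08% of all TPM. GAPDH, which oxidises glyceraldehyde 3-phosphate, was highest, at 6562 and 6484 TPM in WT, 7625 and 6282 in GFP and, in RBMXL3, 6380 and 6572. TPI1, the triose phosphate isomerase, came next, at 3330 and 3230 TPM in WT, 3535 and 2775 in GFP and, in RBMXL3, 2312 and 2402; every RBMXL3 library lay below every control. The enolase ENO1 followed at a mean of 1670 TPM, and LDHB at 1469, within 1208 to 1716, so their ranges overlapped. At the other end, PDK4 had a mean of 1.04 TPM and PDK3 of 2.98.

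The leading isozyme was the same in every library for the glucose transporters, hexokinases, phosphofructokinases, aldolases, enolases, lactate dehydrogenases and lactate transporters. SLC2A3 (GLUT3) supplied 81.7% to 84.9% of the SLC2A1 and SLC2A3 transcripts, with 432 and 421 TPM in WT, 368 and 421 in GFP and, in RBMXL3, 412 and 422. HK1 supplied 87.9% to 89.4% of the 2 hexokinases, at 81.9 and 79.8 TPM in WT, 81.8 and 63.4 in GFP and, in RBMXL3, 62.4 and 66.8. PFKL, the liver type of phosphofructokinase, supplied 58.5% to 63.7% of the 3 phosphofructokinases, with 186 and 215 TPM in WT, 253 and 193 in GFP and, in RBMXL3, 233 and 244. GFP replicate 1 was the highest for PFKL, and the groups overlapped for both SLC2A3 and PFKL. ALDOA made up 95.3% to 96.2% of the aldolases. ENO2, the enolase known from neurons, reached 37.2% to 42.4% of the 2 enolases. For lactate dehydrogenase, LDHB, whose heart-type subunit favours lactate oxidation, made up 73.8% to 77.8% of LDHA and LDHB transcripts, so LDHB and not LDHA was the more abundant in TPM in every library. Of the lactate transporters SLC16A1 and SLC16A3, SLC16A1 (MCT1) made up 69.1% and 68.0% for WT, 61.9% and 66.0% for GFP and 58.5% and 57.3% for RBMXL3. Both RBMXL3 libraries were thus below the other 4; this share was not tested.

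**Figure D1:**
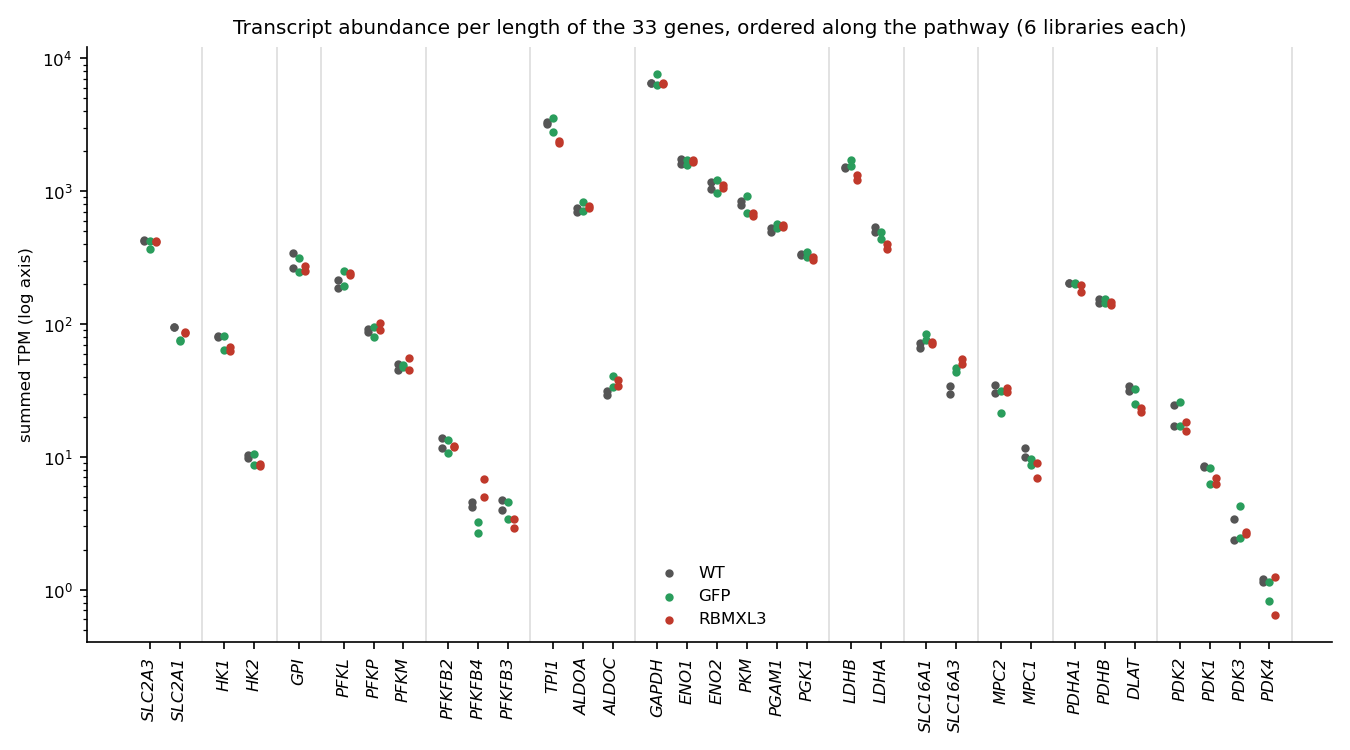
Summed TPM (log axis) of each of the 33 genes in the 6 libraries, WT in grey, GFP in green and RBMXL3 in red, with genes grouped by step in pathway order. GAPDH and TPI1 are the most abundant and PDK4 is the least; for most genes the colours overlap.

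Of the remaining steps, GPI, the glucose 6-phosphate isomerase, had 266 and 342 TPM in WT, 314 and 245 in GFP and, in RBMXL3, 252 and 272. PFKFB2, one of the enzymes that make and break the phosphofructokinase activator fructose 2,6-bisphosphate, had 10.7 to 13.8 TPM and was the most abundant of its family. PFKFB3 had 2.93 to 4.77 TPM and PFKFB4 2.67 to 6.83, with PFKFB4 above PFKFB3 in WT replicate 1 and both RBMXL3 libraries and below it in the other 3. GPI and PFKFB2 overlapped between groups. SLC16A1 had 66.2 and 72.7 TPM in WT, 75.7 and 84.8 in GFP and, in RBMXL3, 70.4 and 72.8, so both GFP libraries were above the other 4. MPC2, the pyruvate carrier gene with the more abundant transcripts, had 21.5 TPM in GFP replicate 1 and 30.4 to 34.6 in the other 5 libraries, against 6.97 to 11.6 for MPC1. PDHA1, the catalytic subunit of pyruvate dehydrogenase, had 205 and 203 TPM in WT, 203 and 201 in GFP and, in RBMXL3, 174 and 197. PDK2 was the leading kinase, at 15.7 to 25.8 TPM, with WT replicate 1 and GFP replicate 1 above the other 4 libraries.

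For the comparison between groups, the gene values are normalised read counts: the reads counted for a gene, divided by 1 size factor per library. All 33 genes passed the minimum level and were tested with limma on the log2 scale across 14292 genes, and a gene is called where the Benjamini-Hochberg adjusted p is under 0.05. Against GFP, RBMXL3 cells had 2 of the 33 genes called higher (PFKFB4, LDHB) and 9 called lower (HK1, HK2, ALDOA, TPI1, PGK1, PKM, LDHA, PDHA1, PDHB), beside 10.5% and 10.4% of all genes tested. Against WT, 3 were called higher (PFKFB4, LDHB, SLC16A3) and 7 lower (SLC2A1, HK1, PFKFB3, TPI1, PGK1, LDHA, PDHA1), beside 14.6% and 15.3%. The total of 11 and of 10 genes in 33 stands beside 20.9% and 29.9% of all genes in either direction. Between the 2 control groups, 1 gene was called, SLC16A3, higher in GFP, beside 1.76% of all genes higher, 1.91% lower and 3.67% in either direction. Both RBMXL3 comparisons use the same RBMXL3 libraries. The 7 genes called the same way against both controls were PFKFB4 and LDHB, higher, and HK1, TPI1, PGK1, LDHA and PDHA1, lower, beside 6.88% and 6.86% of all genes, or 13.7% in either direction. Tested without the minimum level, over 30989 genes, LDHA and LDHB were the only ones of the 33 called against both.

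Most of the other genes leaned to the low side without passing the test. The median log2 change of the 33 genes was -0.16 against GFP and -0.19 against WT, where all genes tested had medians of 0.00087 and -0.014, and 27 and 24 of the 33 lay below 0. Scaling by total reads instead moved the median of all genes up to 0.11 and 0.085 and that of the 33 genes to -0.039 and -0.081, with 24 and 22 below 0. Both RBMXL3 libraries lay under all 4 controls for 17 of the 33 genes and over them for 3, beside 23.6% and 22.5% of all genes. In summed TPM the same held for 5 genes lower (TPI1, LDHA, LDHB, PDHA1, DLAT) and 2 higher (PFKFB4, SLC16A3), beside 12.7% and 27.5% of all genes.

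**Figure D2:**
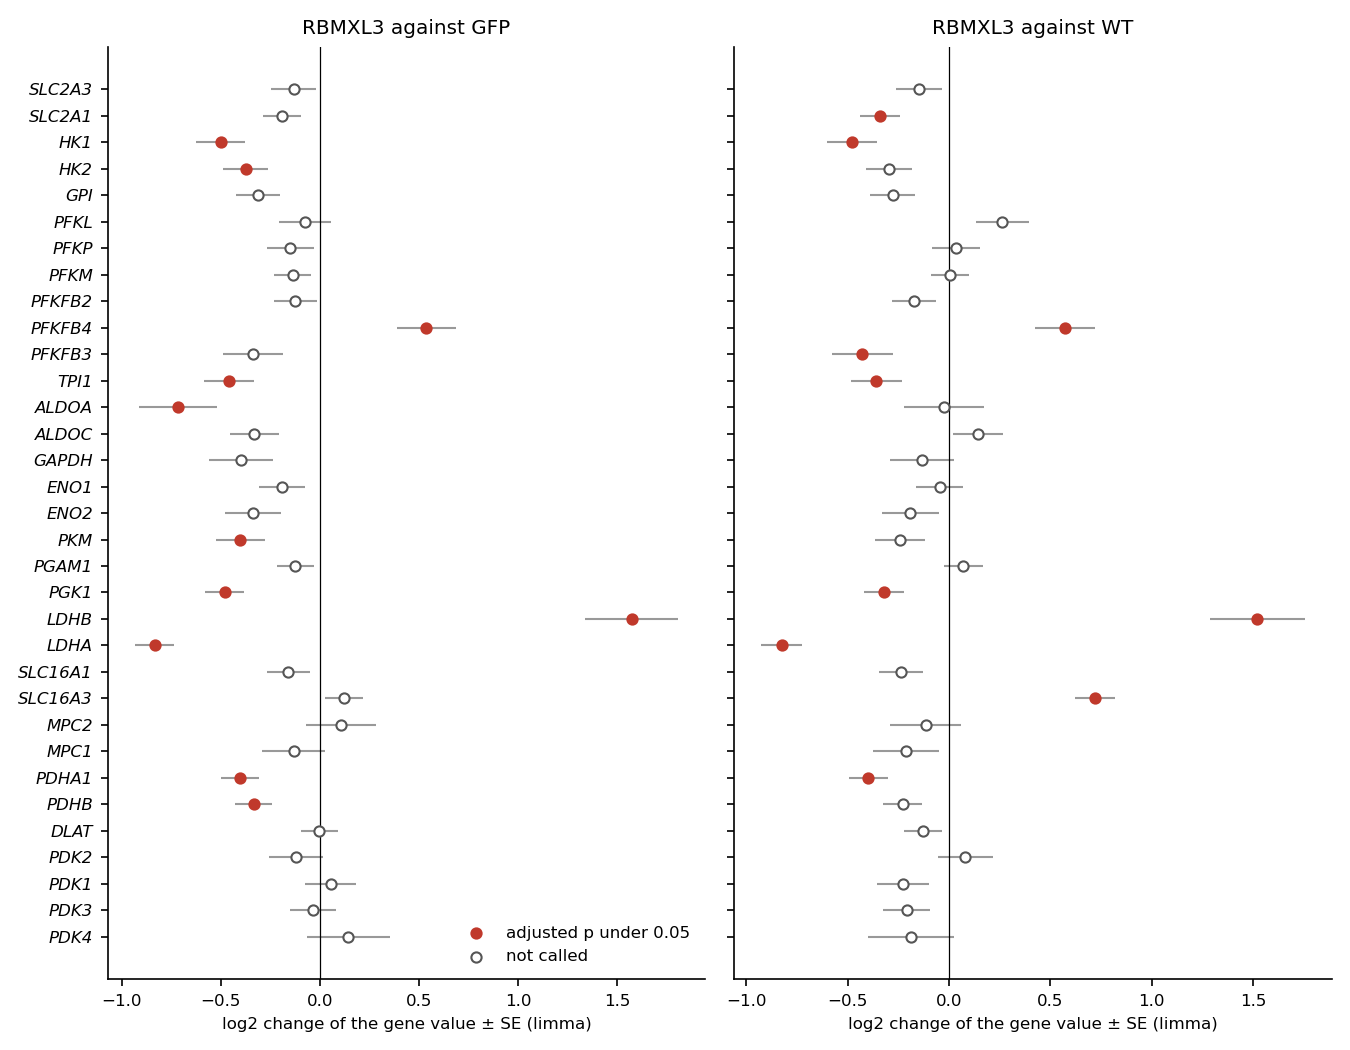
log2 change of the gene value (points) with its standard error (bars) for the 33 genes in pathway order, RBMXL3 against GFP on the left and against WT on the right, from limma with 2 libraries a group. Filled points are called: LDHA is the lowest and LDHB the highest in both panels, and most open points lie left of 0 against GFP.

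LDHA, the muscle-type subunit that favours lactate production, had the largest fall in gene value among the 33 genes against each control. In summed TPM, TPI1 (-0.41 against GFP and -0.48 against WT) and DLAT (-0.33 and -0.53) fell more than LDHA (-0.27 and -0.43). The TPI1 sum includes TPI1-204, a retained-intron transcript of 427 bases, with means of 790 TPM in WT, 799 in GFP and 113 in RBMXL3. Its coding transcript TPI1-202 was also lowest in both RBMXL3 libraries, but by log2 -0.076 and -0.15, not called. The normalised read count of LDHA was 15650 and 14431 for WT, 14938 and 15290 for GFP and 8298 and 8645 for RBMXL3. The 4 controls lay close together and both RBMXL3 libraries far below them. The log2 change was -0.83 ± 0.10 (SE) against GFP (limma, adjusted p = 0.000417) and -0.83 ± 0.10 against WT (adjusted p = 0.000164), with GFP and WT differing by 0.0082. LDHA and LDHB were called against both controls when any 1 of the 6 libraries was left out.

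Upstream of LDHA, 3 enzymes of glycolysis were called lower against both controls, each by a smaller amount. PGK1, which makes the first ATP of the lower part of the pathway, had 13036 and 13613 for WT, 15398 and 14368 for GFP and 10606 and 10713 for RBMXL3. TPI1 had 56436 and 56873 for WT, 65600 and 56363 for GFP and 43811 and 44598 for RBMXL3. HK1, the hexokinase that traps glucose in the cell, had 5441 and 5087 for WT, 6144 and 4646 for GFP and 3722 and 3818 for RBMXL3. For all 3, every RBMXL3 library lay under every control, and the 2 RBMXL3 libraries differed less than the 2 GFP libraries did. The log2 changes were -0.48 (limma, adjusted p = 0.00606) and -0.32 (0.0286) for PGK1, -0.46 (0.0229) and -0.36 (0.0482) for TPI1, and -0.50 (0.0138) and -0.48 (0.0117) for HK1, against GFP and WT. These calls depended on single libraries: PGK1, TPI1 and HK1 each lost at least 1 of them when WT replicate 1, WT replicate 2, RBMXL3 replicate 1 or RBMXL3 replicate 2 was left out, at log2 changes of -0.29 to -0.53. Neither TPI1 change was called with quantile normalization (-0.050 and -0.11) or scaling by total reads (-0.34 and -0.25), nor was PGK1 against WT (-0.18 and -0.21 under those scalings).

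PDHA1, at the entry of pyruvate into the citric acid cycle, was the fifth gene called lower against both controls. It had 5379 and 4912 for WT, 5278 and 5027 for GFP and 3820 and 3969 for RBMXL3, without overlap. The log2 change was -0.40 against each (limma, adjusted p = 0.0123 and 0.00871). Leaving out WT replicate 1 ended the call against WT (-0.33), and leaving out either RBMXL3 replicate ended both calls (-0.37 to -0.43). PDHB, the beta subunit, was called lower against GFP (-0.33, adjusted p = 0.0273) and had -0.23 against WT (0.0893), while DLAT, the acetyltransferase, had -0.0020 and -0.13. None of the 4 PDH kinases was called in any comparison of gene values, with log2 changes of -0.12 to 0.14 against GFP and -0.22 to 0.080 against WT.

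PFKFB4, which in many tumours is induced by low oxygen, was called higher against both controls. It had 156 and 205 for WT, 178 and 190 for GFP and 264 and 292 for RBMXL3, so the groups did not overlap. The log2 change was 0.54 ± 0.15 against GFP (limma, adjusted p = 0.0239) and 0.57 ± 0.15 against WT (0.0128). Leaving out WT replicate 1 (0.40 against WT), GFP replicate 1 (0.50 against GFP) or either RBMXL3 replicate (0.47 to 0.64) ended a call. PFKFB3, of the same family, went the other way, with 253 and 342 for WT, 279 and 271 for GFP and 225 and 201 for RBMXL3. It was called lower against WT only (-0.43, adjusted p = 0.0475), had -0.34 against GFP (0.130), and stood at -0.23 against WT, uncalled, without WT replicate 2. Neither edgeR nor DESeq2 on the read counts called it (-0.47).

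SLC16A3 (MCT4), an exporter of lactate known from strongly glycolytic cells, was higher in both transduced groups than in WT. It had 1193 and 1267 for WT, 1833 and 1913 for GFP and 1969 and 2116 for RBMXL3. The log2 change was 0.72 ± 0.097 for RBMXL3 against WT (limma, adjusted p = 0.000333) and 0.60 ± 0.097 for GFP against WT (0.0132). Between RBMXL3 and GFP it was 0.12 ± 0.097 (0.400), not called. Leaving out either WT replicate ended the GFP call, at 0.56 and 0.64. SLC2A1 (GLUT1) was called lower against WT (-0.34, limma adjusted p = 0.0197), with 6016 and 5909 for WT, 5691 and 5084 for GFP and 4653 and 4760 for RBMXL3. It lost the call without either WT or either RBMXL3 replicate (-0.32 to -0.36). In summed TPM SLC2A1 had 95.3 and 94.3 for WT, 76.5 and 74.9 for GFP and 85.0 and 87.1 for RBMXL3. RBMXL3 thus lay above GFP in TPM (log2 0.18) and below it in the gene value (-0.19), neither called.

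**Figure D3:**
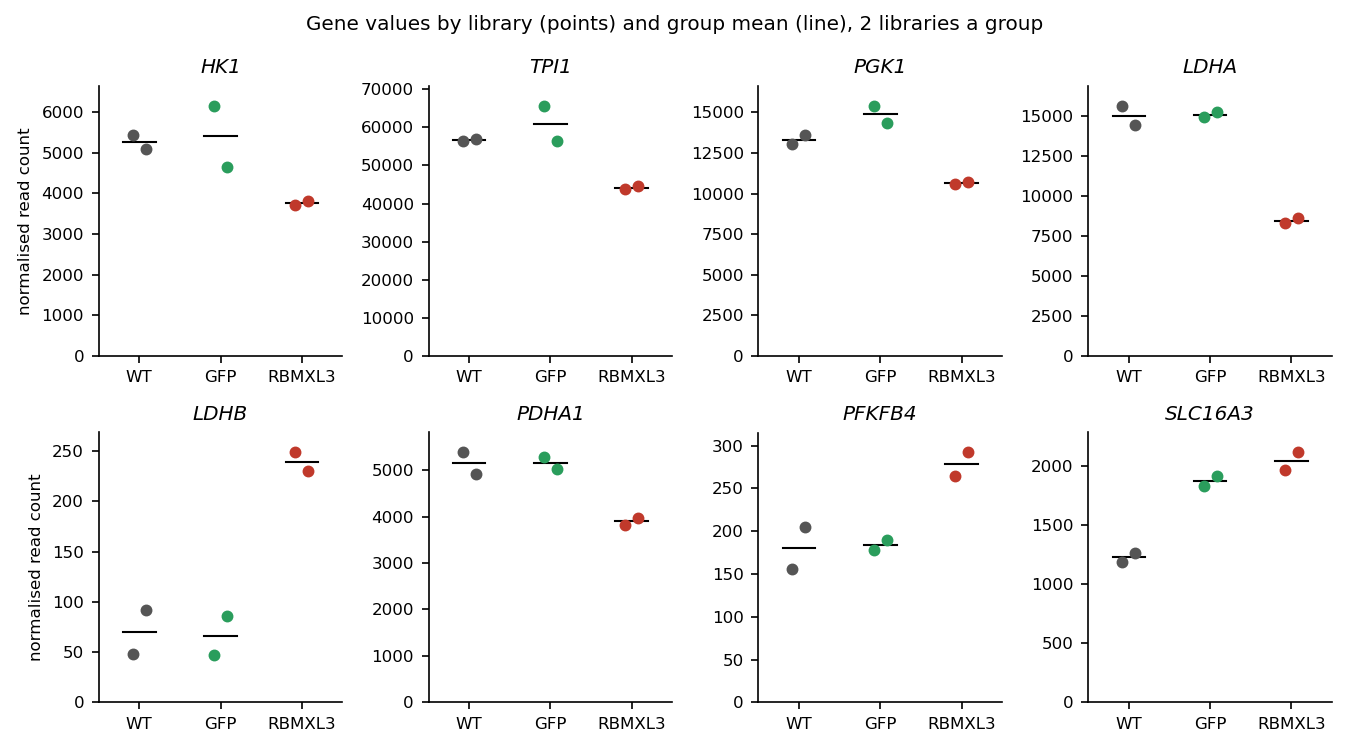
Normalised read counts of 8 genes in each library (points; lines are means of 2 libraries), with each axis starting at 0. In HK1, TPI1, PGK1, LDHA and PDHA1 both RBMXL3 libraries lie below all controls, in LDHB and PFKFB4 above, and in SLC16A3 both transduced groups lie above WT.

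HK2, PKM and ALDOA were called lower against GFP only. HK2, the inducible hexokinase, had a log2 change of -0.37 (limma, adjusted p = 0.0339) against GFP and -0.29 (0.0654) against WT. PKM, pyruvate kinase, had -0.40 (0.0366) and -0.24 (0.157). GFP replicate 1 held the highest value of the 6 libraries in all 3 genes, and without it the changes against GFP were -0.24 for HK2, -0.25 for PKM and -0.55 for ALDOA, none called. HK2 and PKM also lost their calls without either WT or either RBMXL3 replicate. Scaled by total reads, none of the 3 was called (-0.26, -0.28 and -0.61), nor were PDHB against GFP (-0.22) and SLC2A1 (-0.23) and PFKFB3 (-0.33) against WT. GAPDH had 130284 and 128583 for WT, 177105 and 136647 for GFP and 118746 and 117501 for RBMXL3. Its log2 change of -0.40 against GFP was not called (adjusted p = 0.0952) but was with DESeq2 on the read counts (-0.40), and it was -0.58 and called without GFP replicate 2. The other genes without a call in any comparison of gene values were GPI, PFKL, PFKM, PFKP, PFKFB2, ALDOC, PGAM1, ENO1, ENO2, SLC2A3, SLC16A1, MPC1, MPC2, DLAT and the kinases, with log2 changes of -0.34 to 0.14 against GFP and -0.28 to 0.26 against WT.

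LDHB was the only gene of the 33 whose gene value was called while its TPM pointed the other way. Its normalised read count was 48.3 and 92.3 for WT, 47.1 and 85.8 for GFP and 248 and 230 for RBMXL3, from 51 to 215 reads per library. The log2 change of the gene value was 1.57 ± 0.23 against GFP (limma, adjusted p = 0.00116) and 1.52 ± 0.23 against WT (0.000706). Summed TPM instead was 1527 and 1508 for WT, 1716 and 1540 for GFP and 1208 and 1316 for RBMXL3, with both RBMXL3 libraries the lowest, at log2 changes of -0.37 (limma on TPM, adjusted p = 0.0742) and -0.27 (0.129). Within that sum the transcript LDHB-202, of 744 bases, had means of 323 TPM in WT, 270 in GFP and 0 in RBMXL3. The main transcript, LDHB-201, had means of 1189, 1353 and 1257, and its libraries overlapped between groups (log2 -0.11 against GFP and 0.083 against WT, not called). The gap between the 2 measures, 1.94 and 1.79, lay at the 99.95th and 99.93rd percentile of 12926 genes.

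The 2 measures also disagreed on how abundant LDHB was. Per base of exon and per read counted its value was 0.0012 of its TPM, where the median of 13634 genes was 0.345 and the 5th percentile 0.0142. The only other gene of the 33 so low was ALDOA, at 0.0021. In the GENCODE 29 annotation both share exons on the same strand with a second gene: LDHB (chr12:21635342-21757857, minus strand) shares 33.4% of its exon bases with ENSG00000285854, which had 0 reads in every library, and ALDOA (chr16:30064164-30070457, plus strand) shares 42.3% with ENSG00000285043, at 12.0 to 25.7 normalised reads. The gene values of LDHB and ALDOA thus correspond to a small part of the abundance that salmon assigned to these genes. The gene value of ALDOA was 91.4 and 151 for WT, 233 and 181 for GFP and 106 and 127 for RBMXL3, while its summed TPM was 699 and 748 for WT, 835 and 715 for GFP and 742 and 775 for RBMXL3. Its log2 change against GFP was -0.71 (adjusted p = 0.0236) in the gene value and -0.027 in TPM (0.893).

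In summed TPM fewer of the 33 genes were called, as were fewer genes overall. Against GFP 1 was called, PFKFB4 (0.79, adjusted p = 0.0494), beside 5.46% of 14262 genes called higher, 1.47% lower and 6.93% in either direction. Against WT 2 were called, LDHA (-0.43, 0.0460) and SLC16A3 (0.69, 0.0167), beside 4.52% of genes called lower, 6.97% higher and 11.5% in either direction. None was called between GFP and WT or against both controls, where all genes had 0% and 4.59% (3.47% higher, 1.12% lower); DLAT (-0.53, 0.0545) and TPI1 (-0.48, 0.0636) were the nearest to a call against WT. The sign of the gene value and of TPM agreed for 21 of the 33 genes against GFP and 28 against WT. Among the 5 genes called lower against both controls, TPM changes were -0.27 and -0.43 for LDHA, -0.41 and -0.48 for TPI1, -0.15 and -0.32 for HK1, -0.12 and -0.14 for PDHA1, and -0.099 and -0.087 for PGK1.

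**Figure D4:**
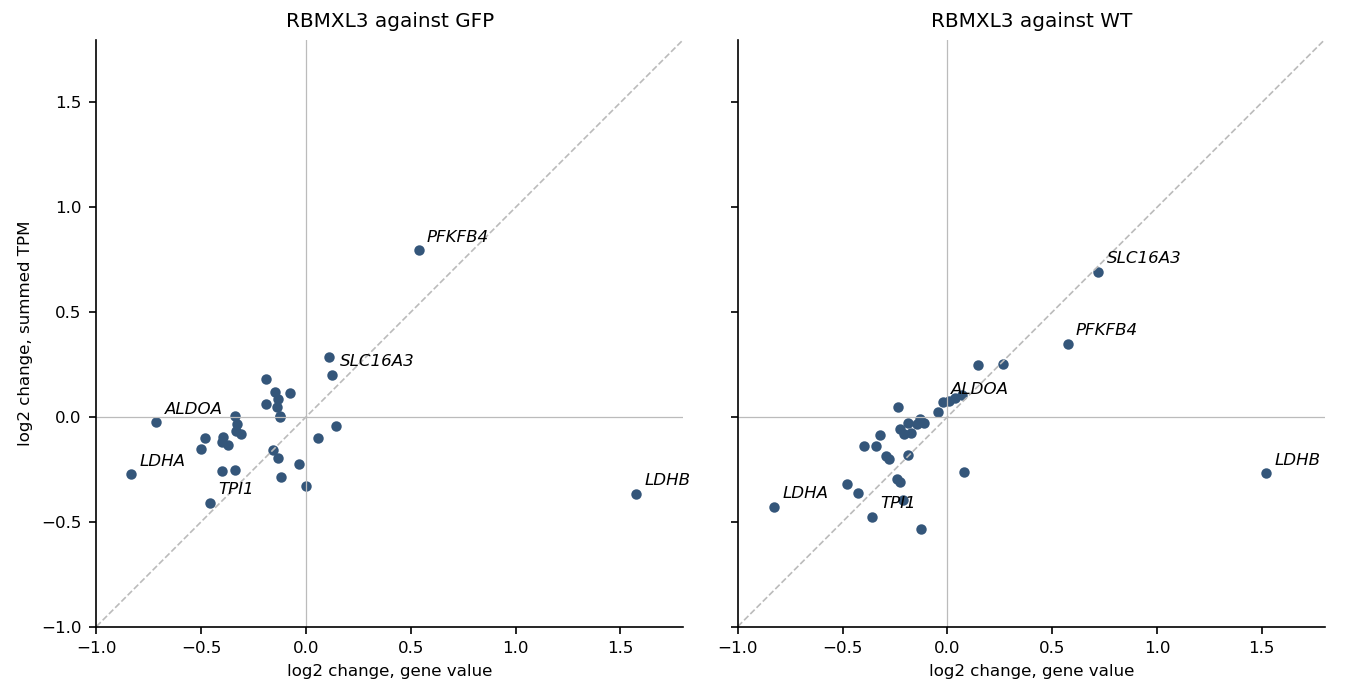
log2 change in summed TPM against log2 change in the gene value for the 33 genes, RBMXL3 against GFP (left) and WT (right); the dashed line marks equal change. LDHB lies far right and below 0, and LDHA lies left of the other genes at a smaller change in TPM.

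The difference between the 2 measures of LDHA stood beside a difference in the annotated 3′ end of its transcripts, a split chosen after the values were seen. LDHA (chr11:18394388-18408425, GRCh38) has its stop codon, that of LDHA-205, ending at 18407281. Transcripts that end more than 700 bases past it had 447 and 427 TPM in WT, 467 and 411 in GFP and, in RBMXL3, 116 and 133. Transcripts that end 700 bases or less past it had 17.8 and 51.4 for WT, 22.9 and 26.2 for GFP and 188 and 192 for RBMXL3. The short-ended transcripts thus made up 3.28% to 10.4% of LDHA TPM in the controls and 51.1% and 47.7% in RBMXL3, without overlap. The third class, which ends at or before the stop codon, varied within groups, at 77.7 and 14.8 for WT, 0.515 and 2.37 for GFP and 64.4 and 76.5 for RBMXL3. Among single transcripts, LDHA-205, the long-ended form of 2416 bases, had 344 and 284 TPM in WT, 271 and 332 in GFP and, in RBMXL3, 90.2 and 105, called lower in its own level against GFP (log2 -1.61, limma adjusted p = 0.0303) and WT (-1.67, 0.0257). LDHA-206, a short-ended coding form of 1310 bases, had 0 and 27.5 for WT, 6.15 and 11.5 for GFP and 84.8 and 88.7 for RBMXL3. Its level was not called (3.22, 0.337 and 4.04, 0.261), and the short-ended group as a whole was not tested.

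Transcript usage could be tested in 28 of the 33 genes with limma diffSplice, which asks whether the transcripts of a gene change unequally on the log2(TPM + 1) scale. Usage was called in 9 genes against GFP (PFKM, TPI1, PGK1, ENO1, ENO2, PKM, LDHA, LDHB, MPC2), in 7 against WT (the same without PGK1 and MPC2) and in 2 between GFP and WT (PFKL, LDHA), beside 12%, 12% and 1.71% of 8875 genes. With transcript shares tested in place of log2 TPM, limma called 0 of the 28 in each comparison, beside 0.913%, 1.14% and 0% of all genes; 8, 8 and 3 of the 28 had an unadjusted p under 0.05, and the lowest adjusted p was 0.0712, 0.0716 and 0.586. Usage of LDHA was called between the 2 controls too (adjusted p = 0.0152).

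In 4 abundant genes a short transcript was 1 of the 2 whose share of the gene changed most. PKM-208, a retained-intron transcript of 699 bases, had 138 and 103 TPM in WT, 182 and 25.0 in GFP, and was listed at 0 in both RBMXL3 libraries. TPI1-204, a retained-intron transcript of 427 bases, had 857 and 723 for WT, 1143 and 455 for GFP and 139 and 86.9 for RBMXL3. LDHB-202, annotated as coding with 744 bases, had 420 and 226 in WT, 420 and 120 in GFP, and was listed at 0 in both RBMXL3 libraries. ENO1-209, of 605 bases and not annotated as coding, had 192 and 51.7 for WT, 198 and 24.5 for GFP and 4.17 and 3.47 for RBMXL3. In each of the 4 both RBMXL3 libraries were lowest and GFP replicate 2 the lowest of the controls. In their own level, LDHB-202 was called against both controls (limma adjusted p = 0.0202 and 0.0177) and PKM-208 against WT (0.0458), while TPI1-204 (0.0842 and 0.0733) and ENO1-209 (0.170 and 0.140) were not called. The main coding transcripts lay closer together. PKM-202 had 634 to 669 TPM in WT, 615 to 665 in GFP and 606 to 634 in RBMXL3, and LDHB-201 had 1102 and 1276 for WT, 1291 and 1415 for GFP and 1203 and 1311 for RBMXL3. PKM-202, TPI1-202, ENO1-201 and LDHB-201 had no called change in level (adjusted p of 0.303 or more). In PFKM, the muscle type of phosphofructokinase, PFKM-221 had 15.8 and 11.7 in WT, 23.5 and 5.92 in GFP, and was listed at 0 in RBMXL3, and PFKM-210 had 10.1 and 15.1, 3.81 and 15.8, and 28.1 and 24.5. ENO2-209, at 0 to 17.5 TPM, was listed at 0 in GFP replicate 2 and both RBMXL3 libraries, and ENO2-207 had 12.7 to 29.6 in the controls and 28.5 and 35.3 in RBMXL3.

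**Figure D5:**
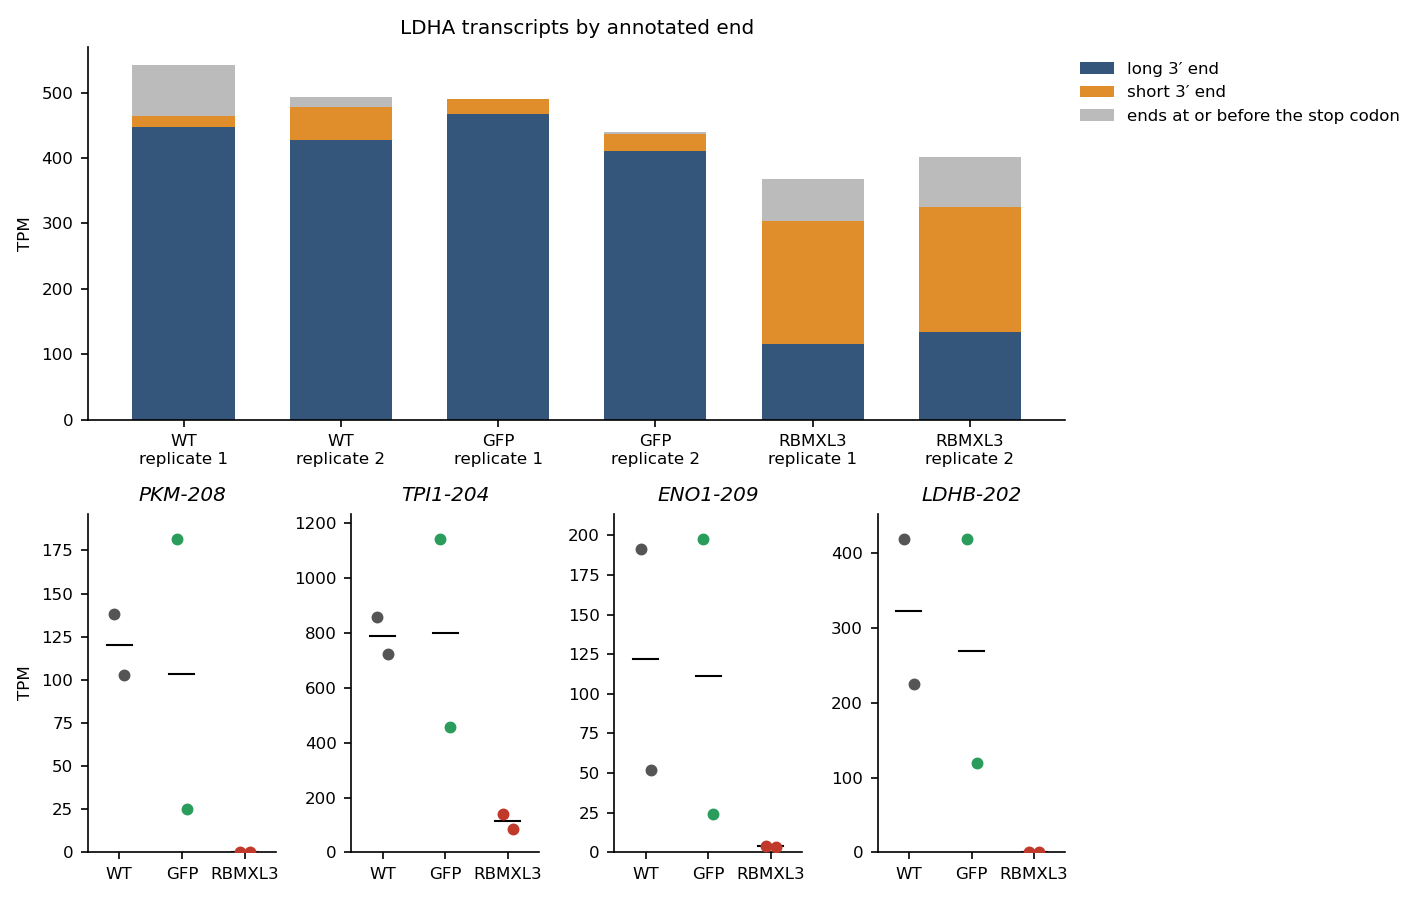
Top, TPM of LDHA in each library, stacked by annotated transcript end; the long-ended class is 411 to 467 in controls and 116 and 133 in RBMXL3. Bottom, TPM of 4 short transcripts by library (points; lines are means of 2), with RBMXL3 lowest in each and the controls widely spread.

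Pyruvate kinase M is a textbook case of splicing in metabolism: the gene uses 1 of 2 mutually exclusive exons, giving M1 of muscle and brain or M2 of embryonic and tumour cells. The 2 exons are shown because they define that choice. Both have 167 bases on the minus strand of chromosome 15 (GRCh38), M2 at chr15:72202454-72202620 and M1 at chr15:72203022-72203188. Capitals mark the 62 positions at which they differ, which leaves 62.9% identical.
PKM M1 exon: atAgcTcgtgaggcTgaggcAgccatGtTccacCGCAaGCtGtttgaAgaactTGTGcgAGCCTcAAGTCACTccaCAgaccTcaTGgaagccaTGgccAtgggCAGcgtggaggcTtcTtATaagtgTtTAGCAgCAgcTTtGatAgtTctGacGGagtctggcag
PKM M2 exon: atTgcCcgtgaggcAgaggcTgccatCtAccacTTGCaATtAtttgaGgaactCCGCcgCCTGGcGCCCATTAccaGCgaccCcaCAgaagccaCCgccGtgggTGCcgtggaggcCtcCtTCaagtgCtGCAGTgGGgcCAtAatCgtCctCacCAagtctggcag
TCam-2 cells used M2 in every group. Transcripts with the M2 exon had 680 and 638 TPM in WT, 668 and 622 in GFP and, in RBMXL3, 608 and 638. Those with the M1 exon had 5.37 and 10.3, 5.08 and 3.66, and 4.99 and 4.90. M2 made up 98.4% to 99.4% of the 2, and the groups overlapped. Of the 8 listed regulators of this choice, among them PTBP1 and HNRNPA1, none was called against both controls, beside 13.7% of all genes. RBM4 was called higher against GFP alone (log2 0.55, limma adjusted p = 0.0275), on gene values of 110 to 209. Its summed TPM was 184 and 190 for WT, 212 and 172 for GFP and 187 and 189 for RBMXL3, so TPM showed no rise. HNRNPA2B1 was called lower against WT alone (-0.48, limma adjusted p = 0.0104), and in summed TPM both RBMXL3 libraries were its lowest. Transcripts with neither exon, PKM-208 among them, were the class of PKM that was low in RBMXL3, at 33.7 and 37.5 TPM against 55.1 to 255 in the controls.

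Many promoters of this pathway carry ACGTG, the core bound by hypoxia-inducible factors, which in the form CACGTG is also bound by MYC and other factors. Of the 33 genes, 30 had an entry in the RefSeq promoter table (GRCh38.p14); SLC2A3, SLC16A1 and PFKFB2 had none. In the 250 bases before the start, ACGTG on either strand was found in 11 of 30 (36.7%), against 18.7% of all 27305 promoters. Of the 7 genes called against both controls, 2 held it, LDHA and PGK1. Their stretches are shown as the 2 promoters of that group with the motif, up to the first GENCODE 29 exon base that falls in the window, with each ACGTG or its reverse complement CACGT in capitals; CACGTG holds both.
LDHA, chr11:18394313-18394387, plus strand: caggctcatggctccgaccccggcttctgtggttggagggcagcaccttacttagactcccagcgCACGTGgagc
PGK1, chrX:78103998-78104173, plus strand: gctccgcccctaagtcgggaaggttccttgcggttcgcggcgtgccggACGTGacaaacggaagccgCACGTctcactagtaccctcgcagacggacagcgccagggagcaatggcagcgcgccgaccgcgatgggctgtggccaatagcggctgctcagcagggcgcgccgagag
For LDHA this base is the start of the annotated gene. For PGK1 it is the start of PGK1-201 at 78104174, and the stretch lies inside the gene as annotated, since PGK1-206 starts at 77910739. LDHA has 3 such stretches in its full 250 bases, 1 of them in the part shown, and PGK1 has 2, both shown. LDHA and PGK1 were lower in RBMXL3 while PFKFB4, called higher, held no ACGTG in this window; a match describes these letters only.

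The hypoxia-inducible factors, genes that act on them such as VHL and HIF1AN, and other genes known as targets of the factors were given as 1 list. It does not include the 33 genes. Of its 25 genes tested, 4 were called higher (EPAS1, VEGFA, STC2, BNIP3L) and 1 lower (KDM3A) against both controls, beside 6.88% and 6.86% of all genes. In summed TPM those 4 were also highest in both RBMXL3 libraries. KDM3A overlapped there, at 29.1 and 31.2 TPM in RBMXL3 and 29.6 in GFP replicate 2. Against WT alone DDIT4, MXI1 and HILPDA were also called higher, and HIF1A, which encodes HIF-1 alpha (log2 -0.44, limma adjusted p = 0.0132), NDRG1 (-0.47) and HIF1AN (-0.35) were called lower. FAM162A was called lower against GFP alone (-0.53). In summed TPM MXI1 and HIF1AN overlapped with WT, while DDIT4, HILPDA, HIF1A and NDRG1 kept their direction against WT without overlap. HIF1A had 9231 and 7515 for WT, 7236 and 6436 for GFP and 6110 and 6189 for RBMXL3. EPAS1, which encodes HIF-2 alpha, had 329 and 301 for WT, 595 and 523 for GFP and 1021 and 1054 for RBMXL3 (log2 0.87 and 1.65 against GFP and WT). VEGFA, an inducer of vessel growth, had 267 and 255, 359 and 326, and 649 and 649 (0.88 and 1.24). STC2, a secreted glycoprotein, had 1334 and 1164, 1734 and 1739, and 3017 and 2937 (0.77 and 1.24). In all 3 the GFP libraries lay between WT and RBMXL3, and EPAS1 and STC2 were also called between GFP and WT (limma, adjusted p = 0.0110 and 0.0294). The medians of the list were 0.057 and 0.15.

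In the neighbouring routes the counts below stand beside the same 6.88% of all genes called higher and 6.86% called lower against both controls, and with so few genes a list several of them lie near those shares. Of 29 other isozymes and partners tested, 4 were called higher (PCK2, SLC2A10, SLC2A13 and BSG, the partner protein of the lactate transporters) and 1 lower (ENO3) against both controls. In summed TPM those 4 were also highest in both RBMXL3 libraries. ENO3 went the other way in TPM, at 0.567 and 2.22 for WT, 1.13 and 2.07 for GFP and 2.75 and 2.81 for RBMXL3. PCK2, the mitochondrial enzyme that makes phosphoenolpyruvate, had 305 and 357 for WT, 698 and 577 for GFP and 1356 and 1299 for RBMXL3 (log2 1.04 and 1.93). The sugar transporters SLC2A10 (0.84 and 1.25) and SLC2A13 (0.99 and 0.79) were higher too. In the pentose phosphate pathway 1 of 12 was called higher, H6PD (0.57 and 0.79), and 1 lower, PGD (-0.52 and -0.33). In the citric acid cycle 1 of 17 was called higher, SDHD (1.12 and 1.17), and 3 lower (FH, SDHB, SUCLG1), with FH, fumarase, at 3872 and 4188 for WT, 4594 and 4021 for GFP and 2812 and 2741 for RBMXL3 (-0.63 and -0.53), and SUCLG1 at -0.73 and -0.48. Against GFP and WT the median log2 change of the gene value was 0.021 and -0.054 in the other isozymes. It was -0.052 and 0.076 in the pentose phosphate pathway, and -0.26 and -0.19 in the citric acid cycle. No such medians were taken in summed TPM. There the citric acid cycle genes FH, SDHB, SUCLA2 and SUCLG1 were lowest in both RBMXL3 libraries, and SDHC, SDHD, SUCLG2 and IDH2 were highest. Of 10 isozymes known from male germ cells, 1 reached the minimum level for a test, SLC2A14, which was not called; PGK2 and PDHA2 were listed at 0 in all 6 libraries.

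Exons of 7 genes annotated as antisense lie opposite exons of the 33 genes, and the one opposite GAPDH was low in RBMXL3, a gene singled out after its values were seen. ENSG00000269968, all of whose exon bases lie opposite GAPDH exons, had 856 and 630 for WT, 619 and 892 for GFP and 21.9 and 32.1 for RBMXL3, which is 0.350% to 0.657% of the GAPDH reads in the controls and 0.0184% and 0.0273% in RBMXL3. The partner of ALDOC, ENSG00000265168, had 3 to 12 reads in the controls and 0 in both RBMXL3 libraries, where up to 3 reads cannot be told from none. That of PDHB, ENSG00000272182, had 6 to 11 reads in the controls and 1 and 0 in RBMXL3. The other 4 were not lower in both RBMXL3 libraries than in every control: SLC16A1-AS1 had values of 87.8 to 112 in the controls and 115 and 86.6 in RBMXL3, and those opposite ALDOA, ENO1 and PDK1 were at 17.0 or less in every library. The library kit marks strand, but the strand setting of the counting is not given in the sources used here, so reads of a gene and of its antisense partner may not be fully separated.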

How the data were processed

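TCam-2 RNA was measured in 6 libraries, 2 for each of 3 groups named in the labels. The submitters' processing notes name Trim Galore 0.6.10, STAR 2.7.11a, DESeq2 and Salmon 1.10.2 with a GRCh38 build; counter, annotation and strand setting are not given in the sources used here. The deposited gene table, named for CPM, holds a signal that equals counts divided by 1 factor per library: all nonzero values were whole reads (100%, within 0.001), at 17685680 to 29318007 reads a library. The planned CPM test was therefore run on these values divided by 23.9. The authors' transcript table holds TPM, summed here per gene with GENCODE 29. limma 3.58.1 (R 4.3.3) with an intensity trend was fitted to log2(value + 1) for genes of at least 1 in 2 libraries, all 6 libraries in one fit, two-sided, and diffSplice to log2(TPM + 1). edgeR 4.0.16 and DESeq2 1.42.0 on the recovered reads were alternatives, and the scripts were tested on simulated data. Values are named per library for genes called against both controls, genes whose 2 measures differ in sign with a call, the most abundant gene of each step, and up to 3 genes a list; those of other genes were added after seeing them. The 33 genes, lists and tests were chosen with earlier results of these data known. Same-numbered libraries did not deviate together (correlations -0.16, 0.034 and -0.094).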

Additional observations from a re-analysis of the deposited data

How the results depend on the processing

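With 2 libraries a group, counts of called genes moved with each library. Of the 33 genes, the count called against GFP (11) was 3 without the filter, 6 scaled by total reads, 1 in summed TPM and 2 to 19 when 1 library was left out; against WT (10) it was 4, 6, 2 and 3 to 16; for GFP against WT (1) it was 0 without the filter, 2 with DESeq2, 0 in summed TPM and 0 to 10; against both controls (7) it was 2, 5 scaled by total reads, 0 in TPM and 2 to 12. It was 2 (LDHA, LDHB) without WT replicate 1, RBMXL3 replicate 1 or RBMXL3 replicate 2, 4 without WT replicate 2 and 12 without GFP replicate 2. edgeR gave 11, 9, 1 and 7, DESeq2 12, 9, 2 and 7. With the replicate number as a block, which the labels do not tie to a shared culture, the counts were 9, 7, 1 and 5; with the GFP numbers exchanged, a setting added after seeing the data as was the total-read scaling, 13, 12, 3 and 9. Changed usage was called in 5 to 11, 5 to 7 and 0 to 2 genes with 1 library left out, in 0 in each comparison from transcript shares, and for GFP against WT in 0 at a mean TPM of at least 5 and 1 with the block. Signs turned for ALDOA against WT (0.068 by total reads, 0.070 in TPM, 0.28 without WT replicate 2, 0.090 without RBMXL3 replicate 1, with a range of -0.32 to 0.28 over the libraries left out), ENO1 against GFP (0.15 by quantiles, 0.060 in TPM) and WT (0.23 by quantiles, 0.063 by total reads, 0.026 in TPM), SLC2A3 against GFP (0.15 by quantiles, 0.084 in TPM) and WT (0.020 by quantiles), and LDHB in TPM (-0.37 and -0.27). Over 29 results for single genes and 464 values, 341 kept direction and side of the threshold, 107 lost and 2 gained a call, and 14 reversed. The cause was not tested.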
